A study of Mus musculus with 16 samples.

Results

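The nuclear-encoded subunits of the mitochondrial oxidative phosphorylation system were followed complex by complex in sorted parvalbumin reporter cells. Members were all genes whose symbol starts with Ndufa, Ndufb, Ndufc, Ndufs, Ndufv, Sdh, Uqcr, Cox4i, Cox5, Cox6, Cox7, Cox8 or Atp5, with the assembly factors Ndufaf and Sdhaf left out, and each gene was represented by its transcript cluster with the highest mean. A transcript cluster is the array's probe set for one gene locus. This gave 88 of the 30142 genes measured: 38 of complex I, 4 of complex II, 9 of complex III, 18 of complex IV and 19 of complex V. Of these, 86 passed the filter on low values. Ndufa4l2 and Cox8b did not, and 7 of the 88 were pseudogenes or copies (such as Uqcrh-ps1 and Atp5c1-ps). Ndufa4 stands under complex I by its symbol, although it is now assigned to complex IV. The mitochondrially encoded subunits were not analysed here.

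The study compared parvalbumin-positive interneurons of 2 reporter lines and 2 brain regions on 16 arrays, 4 in each of 4 groups. PVCre striatum and PVCre cortex came from mice with the genotype PVCre/+; tdTomato/+, in which Cre made under the control of Pvalb switches on the red fluorescent protein tdTomato. PV-tdTomato striatum and PV-tdTomato cortex came from PV-tdTomato/+ mice, which carry a reporter without Cre. All mice were C57BL/6J, labelled male and 30 days old; striatum means dorsal striatum and cortex means motor and somatosensory cortex. Each array held RNA from 2000 cells collected by fluorescence-activated cell sorting and pooled from 2 to 4 mice, so the spread between arrays is one between pools.

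Oxidative phosphorylation moves electrons from NADH through complex I, or from succinate through complex II, to ubiquinone, then through complex III and cytochrome c to oxygen at complex IV, and the proton gradient built on the way drives ATP synthesis by complex V. Fast-spiking parvalbumin interneurons are known for a dense content of mitochondria and a high use of oxygen. Subunits fall into core subunits, which bind the cofactors or catalyse the reaction, accessory subunits around them, and isoforms such as Cox6a2 and Cox8b that are best known from heart and skeletal muscle. The list counted as core below is wider than this definition, since it also holds Uqcrc1, Uqcrc2, Cox4i1, Cox5a and Cox5b.

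The libraries differed in ways that touch the results below. The distance between positive and negative control probe sets was 3.08 to 3.93 log2 units on the PVCre arrays and 4.16 to 4.85 on the PV-tdTomato arrays, with no overlap. Pvalb itself, which encodes parvalbumin, fell into a lower cluster of 6 arrays at 6.69 to 8.40 and an upper cluster of 10 arrays at 10.20 to 12.48 on the log2 scale. The lower cluster held replicates 2 and 4 of PVCre cortex, which were also low in the GABA-synthesis gene Gad1 (8.88 and 7.40, against 11.63 and 13.66 in replicates 1 and 3), and replicates 3 and 4 of each PV-tdTomato group. Xist, which is transcribed from the inactive X chromosome of female cells, was above 12 in 8 of 16 arrays labelled male, 3 of 4 in each PVCre group and 1 of 4 in each PV-tdTomato group. Mean levels of oligodendrocyte markers were 14.66 to 14.97 in PVCre striatum, 15.31 to 15.63 in PVCre cortex, 12.55 to 14.77 in PV-tdTomato striatum and 12.96 to 15.24 in PV-tdTomato cortex, above the range of the background probe sets (2.95 to 6.10) in every array.

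Promoters were read because many members moved together across arrays, and 4 are shown to set a subunit low in the PVCre arrays (Sdha, Ndufs8), one high in them (Ndufb11) and one steep against Pvalb (Cox5a) side by side. RefSeq (GRCm38.p6) lists 71 promoters for 67 of the 88 members. The 250 bases before each start were searched on both strands for 4 motifs, each counted on its own whether or not it overlapped another. The NRF1 motif (GCGC, any base, then TGCGC) was in 11 of the 71 (15.5%), against 3.74% of all 32851 promoters. The ETS motif CCGGAAG was in 12 (16.9%), against 6.91% of all. The YY1 motif AANATGGC was in 6 (8.45%), against 3.91%. The ERR motif TCAAGGTCA was in only 1, that of Atp5g3 (1.41%), against 0.387%. Capitals below mark matches on either strand, which are NRF1 matches in Sdha and YY1 matches in Ndufs8 and Ndufb11. Cox5a holds none of the 4 in this window. Neither do Cox7a2 and Ndufa4, which were picked along with these and are not shown. Sdha lies at chr13:74350241-74350490 on the minus strand, Ndufs8 at chr19:3912775-3913024 on the minus strand, Ndufb11 at chrX:20617620-20617869 on the minus strand and Cox5a at chr9:57520982-57521231 on the plus strand.
Sdha: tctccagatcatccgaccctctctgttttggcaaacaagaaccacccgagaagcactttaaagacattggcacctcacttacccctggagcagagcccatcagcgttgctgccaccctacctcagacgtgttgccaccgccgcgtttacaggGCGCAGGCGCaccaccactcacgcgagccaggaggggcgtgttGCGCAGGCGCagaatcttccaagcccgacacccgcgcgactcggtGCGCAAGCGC
Ndufs8: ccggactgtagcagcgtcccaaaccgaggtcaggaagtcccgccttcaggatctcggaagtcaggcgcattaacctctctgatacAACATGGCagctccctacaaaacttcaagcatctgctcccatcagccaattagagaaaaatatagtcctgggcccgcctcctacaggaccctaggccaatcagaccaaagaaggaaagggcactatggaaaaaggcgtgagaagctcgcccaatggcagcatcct
Ndufb11: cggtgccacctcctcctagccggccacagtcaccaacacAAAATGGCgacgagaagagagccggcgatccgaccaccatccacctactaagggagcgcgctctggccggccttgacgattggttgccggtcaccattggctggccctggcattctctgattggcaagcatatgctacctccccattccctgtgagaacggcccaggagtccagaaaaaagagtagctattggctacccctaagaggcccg
Cox5a: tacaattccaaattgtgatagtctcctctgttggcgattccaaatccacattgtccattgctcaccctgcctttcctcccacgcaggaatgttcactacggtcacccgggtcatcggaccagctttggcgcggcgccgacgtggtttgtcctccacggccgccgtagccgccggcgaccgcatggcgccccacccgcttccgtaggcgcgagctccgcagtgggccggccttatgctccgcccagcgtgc
A match is a description of these letters; binding was not measured.

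Averaged over the members of a complex, levels lay close together in the 4 groups, and complex II had the widest gap between the means of the 2 lines in each region. The mean log2 level of the 4 complex II subunits was 9.55, 9.85, 10.22 and 9.86 in PVCre striatum, against 10.84, 11.10, 10.02 and 10.36 in PV-tdTomato striatum. In PVCre cortex it was 9.87, 9.69, 10.42 and 9.38, against 10.72, 10.38, 10.03 and 10.28 in PV-tdTomato cortex. The lines overlapped in both regions. The gap lay mainly in Sdha, which differed by -2.55 in striatum and -2.31 in cortex (PVCre minus PV-tdTomato). Sdhc differed the other way, by 0.52 and 0.48, and Sdhb and Sdhd did not pass the test given below. Complex I averaged 11.66 ± 0.20 in PVCre striatum, 11.16 ± 0.47 in PVCre cortex, 11.69 ± 0.67 in PV-tdTomato striatum and 11.39 ± 0.29 in PV-tdTomato cortex (SD, n = 4 each, copies left out). Complex IV averaged 11.07 ± 0.15, 10.47 ± 0.38, 10.71 ± 0.57 and 10.39 ± 0.24 in the same groups. Within every line the striatal mean lay above the cortical one for all 5 complexes, by less than 1 log2 unit. The levels of different complexes are not set against each other, since probes differ in brightness.

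**Figure D1:**
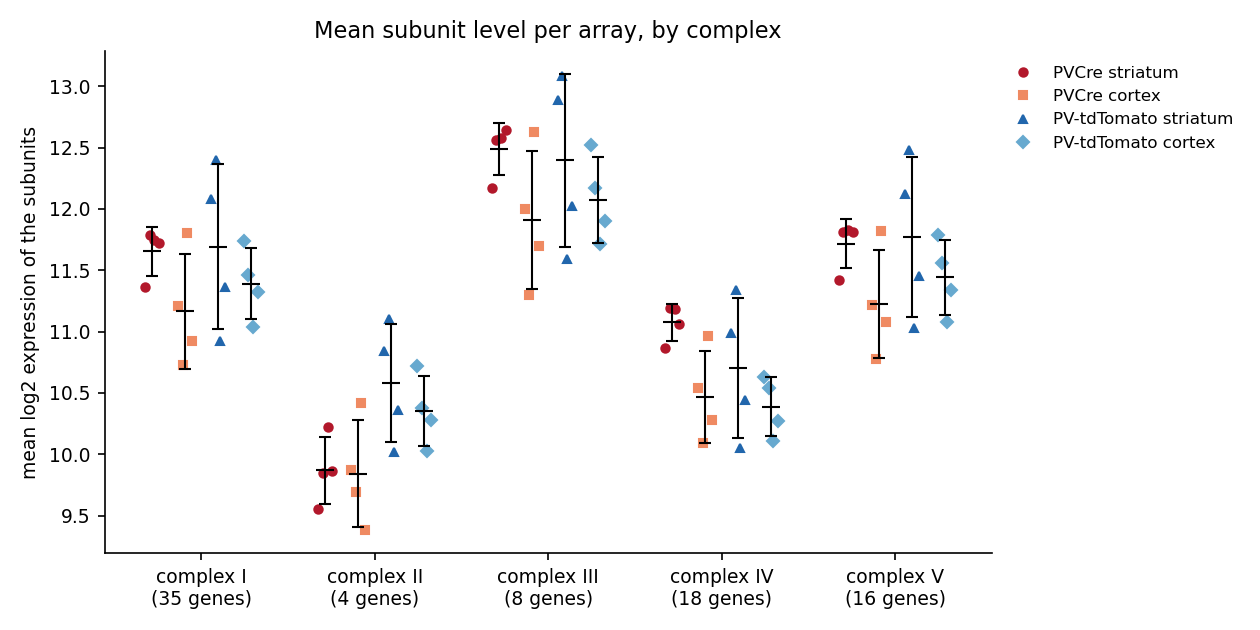
Mean log2 level of the subunits of each complex (y axis) in the 16 arrays by group (x axis), copies left out; each point is 1 array and bars give the mean ± SD of 4 arrays. Arrays of 1 group spread as widely as the groups differ, and complex II is lower on average in the PVCre groups (9.87 and 9.84) than in the PV-tdTomato groups (10.58 and 10.35). Sdha holds most of this gap (-2.55 in striatum and -2.31 in cortex), while Sdhc is higher in PVCre.

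Behind these averages single subunits of the same complex differed between the lines in opposite directions. In striatum, 13 of the 86 tested members were higher in PVCre and 12 lower (limma, Benjamini-Hochberg adjusted over 20095 genes, threshold 0.05), where 53.4% of all genes passed, 18.1% higher and 35.3% lower. The members' median difference was 0.08, against -0.23 over all genes. An unadjusted p under 0.05 was found for 31 of 86 members and 11824 of 20095 genes. In cortex, 10 members were higher and 14 lower, where 53.6% of all genes passed, 19% higher and 34.6% lower, and their median was -0.11 against -0.23. The share of members called was thus below that of all genes in both regions. The comparisons in striatum and in cortex share no arrays, although PV-tdTomato arrays with the same number in striatum and cortex deviated together. Here 9 members were higher in both (69.2% of the striatal and 90.0% of the cortical list), 9 lower in both (75.0% and 64.3%), and 0 were called in opposite directions. Over all genes the shares were 82.0% and 78.2% for higher and 81.2% and 82.8% for lower calls, with 15 genes opposite, so the members' overlap was no result about them. The calls higher in both regions include Uqcrh-ps1, whose PV-tdTomato means of 5.49 and 5.46 lie under the filter level of 5.53, so that it passed the filter only through the PVCre arrays. With quantile normalization the split moved to 33 higher and 6 lower in striatum (23.7% and 24% of all genes) and to 25 higher and 8 lower in cortex (26% and 23.8%).

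By complex, in striatum 2 of 34 tested complex I subunits were higher and 3 lower, with a median difference of 0.02. In complex II it was 1 higher and 1 lower of 4, in complex III 2 and 1 of 8, in complex IV 5 and 3 of 17, and in complex V 1 and 4 of 16. Among the 18 core subunits 2, Cox4i1 and Sdhc, were higher (11.1%) and 6 lower (33.3%), with a median of -0.40. Over all genes 18.1% were higher and 35.3% lower, with a median of -0.23, so the share of lower core subunits was near that of all genes. The other 61 subunits had 9 higher and 6 lower (14.8% and 9.84%), with a median of 0.14. In cortex the core subunits had 2 higher and 8 lower (11.1% and 44.4%, median -0.28). The others had 6 higher and 6 lower (9.84% each, median -0.11), where 19% of all genes were higher and 34.6% lower. Complex IV had the highest median of the 5 complexes in both regions (0.22 in striatum and 0.08 in cortex).

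**Figure D2:**
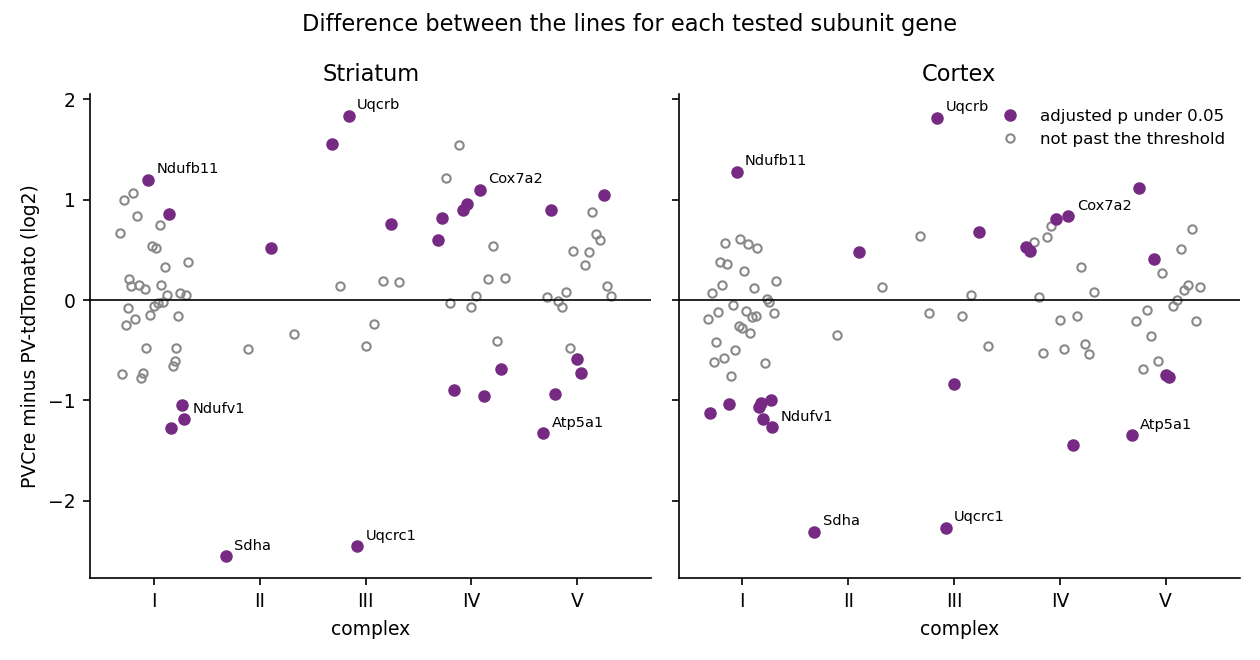
Difference between PVCre and PV-tdTomato (y axis, log2 units, positive where PVCre is higher) for the 86 tested members grouped by complex (x axis). Striatum is in the left panel and cortex in the right. Each point is 1 gene, filled where its limma adjusted p is under 0.05. Complexes II and III each hold called members above and below 0, with Sdha at -2.55 and Uqcrb at 1.84 in striatum.

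Complex II is built of 4 subunits, and they parted. Sdha, the flavoprotein that oxidises succinate, had the lowest difference of the 86 members. Its log2 level was 9.39, 9.90, 10.49 and 10.04 in PVCre striatum, against 12.88, 12.79, 12.09 and 12.25 in PV-tdTomato striatum. In PVCre cortex it was 9.92, 9.81, 10.67 and 9.09, against 12.76, 12.11, 11.82 and 12.06 in PV-tdTomato cortex. Every PVCre array lay below every PV-tdTomato array, and the difference was -2.55 ± 0.32 in striatum (SE, limma adjusted p = 1.9e-05) and -2.31 ± 0.32 in cortex (adjusted p = 4.5e-05). Sdhc, one of the 2 membrane anchors, went the other way: 9.0, 9.05, 9.22 and 8.86 in PVCre striatum, against 8.48, 8.79, 8.34 and 8.42 in PV-tdTomato striatum. The groups did not overlap, and the difference was 0.52 ± 0.15 in striatum (adjusted p = 0.0094) and 0.48 ± 0.15 in cortex (adjusted p = 0.015). Sdhb, the iron-sulfur subunit that passes the electrons on, did not pass the test (-0.49 ± 0.27 in striatum, limma adjusted p = 0.15, and -0.35 ± 0.27 in cortex, 0.3). The other anchor, Sdhd, did not pass either (-0.34 ± 0.35, 0.44, and 0.13 ± 0.35, 0.76).

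Complex III showed the widest spread. Uqcrc1, a core protein on the matrix side, was at 10.28, 10.66, 11.42 and 11.45 in PVCre striatum, against 14.26, 13.78, 12.73 and 12.87 in PV-tdTomato striatum. In PVCre cortex it was at 10.37, 10.17, 12.12 and 10.31, against 13.92, 13.03, 12.53 and 12.56 in PV-tdTomato cortex. Uqcrc1 did not overlap between the lines, although replicate 3 of PVCre cortex, at 12.12, came close to the lowest PV-tdTomato cortex array, at 12.53, and the difference was -2.45 ± 0.48 in striatum (adjusted p = 0.00066) and -2.27 ± 0.48 in cortex (0.0012). Uqcrb, the ubiquinone-binding subunit, was at 14.97, 15.09, 15.18 and 15.24 in PVCre striatum, against 13.80, 14.15, 12.41 and 12.78 in PV-tdTomato striatum. In PVCre cortex Uqcrb was at 14.64, 14.16, 15.00 and 14.48, against 13.26, 12.97, 12.19 and 12.57 in PV-tdTomato cortex. Here every PVCre array was the higher one, by 1.84 ± 0.34 in striatum (adjusted p = 0.0004) and 1.82 ± 0.34 in cortex (0.00043). Uqcr10, a small accessory subunit, passed in striatum (1.56 ± 0.58, adjusted p = 0.034) and not in cortex (0.64 ± 0.58, 0.36). Uqcrc2, the other core protein, passed only in cortex (-0.84 ± 0.31, adjusted p = 0.033, against -0.46 ± 0.31 and 0.23 in striatum), but no member passed the test of the difference between the striatal and the cortical line effect. Uqcrfs1, the Rieske iron-sulfur protein, passed in neither region (-0.24 ± 0.20 and -0.16 ± 0.20).

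**Figure D3:**
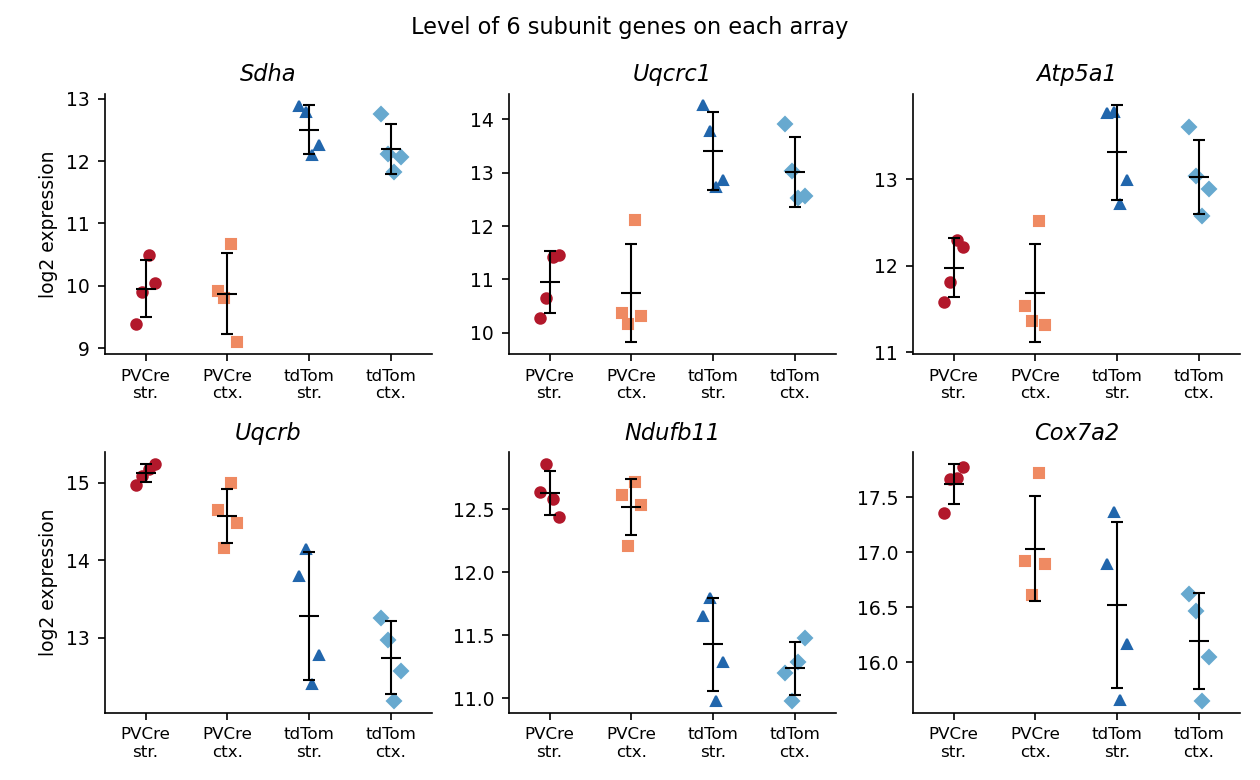
Log2 level (y axis) of Sdha, Uqcrc1, Atp5a1, Uqcrb, Ndufb11 and Cox7a2 in each of the 16 arrays by group (x axis); points are arrays and bars the mean ± SD of 4 arrays. The PVCre arrays lie below the PV-tdTomato arrays for Sdha, Uqcrc1 and Atp5a1 and above them for Uqcrb and Ndufb11, while Cox7a2 overlaps.

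In complex I, Ndufs1, Ndufv1 and Ndufs8 were lower in PVCre striatum. In cortex 7 were lower, these 3 with Ndufs3 and with Ndufs4, Ndufa8 and Ndufa10, which are named only after their values were seen. Ndufs1, the largest iron-sulfur subunit, was at 8.48, 8.71, 9.46 and 9.64 in PVCre striatum, against 10.79, 10.67, 9.83 and 10.12 in PV-tdTomato striatum. In PVCre cortex Ndufs1 was at 8.70, 8.76, 9.48 and 8.61, against 10.40, 9.86, 9.77 and 9.80 in PV-tdTomato cortex. The lines did not overlap, and the difference was -1.28 ± 0.29 in striatum (adjusted p = 0.0021) and -1.07 ± 0.29 in cortex (0.0068). Ndufv1, which binds NADH and the flavin, differed by -1.19 ± 0.40 and -1.27 ± 0.40 (adjusted p = 0.021 and 0.015). Ndufs8, another iron-sulfur subunit, differed by -1.05 ± 0.38 and -1.0 ± 0.38 (0.03 and 0.038). Ndufs3, which links the matrix arm, passed only in cortex (-1.03 ± 0.30, adjusted p = 0.009, against -0.66 ± 0.30 and 0.075 in striatum), and Ndufs7 and Ndufv2, which bind iron-sulfur clusters as Ndufs1 and Ndufs8 do, passed in neither (0.07 ± 0.25 and 0.05 ± 0.33 in striatum). Ndufb11, an X-linked accessory subunit of the membrane arm, was higher instead: 12.64, 12.86, 12.58 and 12.44 in PVCre striatum, against 11.65, 11.80, 10.98 and 11.29 in PV-tdTomato striatum. In PVCre cortex Ndufb11 was at 12.61, 12.21, 12.72 and 12.53, against 11.20, 10.98, 11.29 and 11.48 in PV-tdTomato cortex. All PVCre arrays were above all PV-tdTomato arrays, by 1.20 ± 0.18 in striatum (adjusted p = 7.3e-05) and 1.28 ± 0.18 in cortex (4.6e-05).

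In complex V, Atp5a1, the alpha subunit of the F1 head, was at 11.58, 11.81, 12.30 and 12.22 in PVCre striatum, against 13.77, 13.78, 12.71 and 12.99 in PV-tdTomato striatum. In PVCre cortex it was at 11.53, 11.36, 12.52 and 11.31, against 13.61, 13.04, 12.58 and 12.89 in PV-tdTomato cortex. There was no overlap, and Atp5a1 differed by -1.33 ± 0.32 in striatum (adjusted p = 0.0028) and -1.35 ± 0.32 in cortex (0.0026). Its catalytic partner Atp5b, the beta subunit, did not pass: 0.03 ± 0.32 in striatum (adjusted p = 0.95; 95% interval -0.65 to 0.71) and -0.21 ± 0.32 in cortex (0.59; -0.89 to 0.46). Atp5mpl, a small subunit of the membrane part, passed in striatum (1.05 ± 0.40, adjusted p = 0.039) and not in cortex (0.71 ± 0.40, 0.14). The chosen clusters of Atp5g2 and Atp5l lie on chromosomes 7 and 5, while the genes lie on 15 and 9, so their values may be those of copies. The cluster on its own chromosome gave Atp5g2, a c-ring subunit, -1.20 ± 0.21 in striatum (adjusted p = 0.00032) and -0.57 ± 0.21 in cortex (0.036), where the chosen cluster gave 0.08 ± 0.16 (0.69) and 0.41 ± 0.16 (0.044). For Atp5l the chosen cluster gave 0.48 ± 0.32 (limma adjusted p = 0.22) and -0.0 ± 0.32 (0.99). A cluster on chromosome 9 with a mean of 9.58 gave -0.41 ± 0.27 (0.22) and -0.49 ± 0.27 (0.14). Another there, with a mean of 5.65 in the background range, gave -0.59 ± 0.15 (0.0046) and -0.78 ± 0.15 (0.00066).

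Complex IV held isoforms as well as ubiquitous subunits. Cox7a2, the widely expressed form of subunit 7a, was at 17.36, 17.67, 17.68 and 17.78 in PVCre striatum, against 16.89, 17.37, 15.66 and 16.17 in PV-tdTomato striatum; the groups overlapped only between 17.36 and 17.37, and the difference was 1.10 ± 0.33 (adjusted p = 0.012), with 0.84 ± 0.33 in cortex (0.047). Cox7a2l, which is known for joining complexes III and IV into a supercomplex, went the other way, by -0.96 ± 0.39 in striatum (0.049) and -1.45 ± 0.39 in cortex (adjusted p = 0.0057). Cox4i1, the common form of subunit 4, differed by 0.60 ± 0.21 and 0.53 ± 0.21 (adjusted p = 0.03 and 0.049). Cox4i2, its lung form, was near background in all arrays (5.93 to 7.61, where background probe sets reached 6.10), and differed by 0.82 ± 0.17 and 0.49 ± 0.17 (adjusted p = 0.0012 and 0.027). Cox6b2, best known from testis, was at 7.53 to 8.54 in PVCre arrays and 6.61 to 7.35 in PV-tdTomato arrays, and differed by 0.96 ± 0.21 and 0.81 ± 0.21 (adjusted p = 0.0016 and 0.0051). Cox5b, a zinc-binding subunit, did not pass (-0.03 ± 0.34 and 0.03 ± 0.34). Cox7a1, Cox7b2 and Cox8c passed in neither region; the last was at 5.59 to 6.30, within or next to the background range.

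These line effects moved with other differences between the lines. Microglial markers were higher in PVCre for 9 of 9 tested in each region, with a mean level of 7.26 to 9.30 in PVCre arrays and 5.33 to 5.76 in PV-tdTomato arrays, and neither this measure nor the control separation overlapped between the lines, so they and the line cannot be told apart. Oligodendrocyte markers were higher in PVCre for 5 of 10 tested in striatum and 7 of 10 in cortex. Endothelial and pericyte markers were higher for 7 of 9 and lower for 1 in striatum, with a mean of 7.06 to 9.14 in PVCre striatum and 5.92 to 6.40 in PV-tdTomato striatum, and 1 was higher and 1 lower in cortex. Parvalbumin interneuron markers were lower for 3 of 11 in striatum and 7 of 11 in cortex (median -1.71) and higher for 0, with a mean of 7.03 to 10.80 in PVCre cortex and 9.72 to 11.64 in PV-tdTomato cortex. Among all genes 18.1% were higher and 35.3% lower in striatum, and 19% and 34.6% in cortex. The 27.3% of parvalbumin interneuron markers lower in striatum thus lay below the share of all genes. The part of these cell types in the result was not tested beyond the covariates given here. With the oligodendrocyte mean as a covariate 33 members were higher and 4 lower in striatum (19.4% and 36.9% of all genes; median 0.50) and 26 and 4 in cortex (18.2% and 34.1%; median 0.42). With the separation as a covariate 52 members were higher and 1 lower in striatum (10.5% and 17.2% of all genes) and 40 and 0 in cortex (10.4% and 16.1%), with Sdha at -1.28 ± 0.45 (limma adjusted p = 0.048) and -1.17 ± 0.42 (0.054), Uqcrc1 at -0.17 and -0.21, Atp5a1 at 0.14 and -0.02, Uqcrb at 3.14 and 3.00, and Ndufb11 at 1.70 and 1.73. With microglial markers as a covariate 1 member was higher and 0 lower in each region (2.27% and 11.3% of all genes in striatum, 1.49% and 6.31% in cortex), and Sdha was at -1.08 ± 0.50 (adjusted p = 0.16) and -0.67 (0.48), Uqcrb at 2.23 (0.051) and 2.26 (0.088), and Ndufb11 at 1.03 (0.083) and 1.08 (0.12). Without the 6 arrays low in Pvalb, striatum had 5 higher and 36 lower (16.8% and 39.4% of all genes) and cortex 9 and 10 (17% and 29.5%), and Sdha, Uqcrc1, Uqcrb and Ndufb11 stayed past the test in both regions. With the level of Xist as a covariate the counts were 15 and 6 in striatum (17.3% and 34.2% of all genes) and 8 and 9 in cortex (17.4% and 32.6%), and X-linked Ndufb11 stood at 1.25 and 1.34. Counts also turned on single arrays: in striatum 5 members were lower without replicate 1 or 2 of PV-tdTomato or replicate 1 of PVCre, and 21 without replicate 3 of PV-tdTomato; 25 were higher without replicate 2 of PV-tdTomato, and 8 without its replicate 3 or 4. In cortex 22 were lower without replicate 3 of PVCre, 8 without replicate 1 of PV-tdTomato and 9 without replicate 2 of PVCre, and 5 or 6 were higher without replicate 3 of PV-tdTomato or replicate 3 or 4 of PVCre. Without both replicates 2 and 4 of PVCre, 7 were higher and 3 lower (2827 and 5268 of 20095 genes), and Atp5a1 was at -1.01 (limma adjusted p = 0.053). Leaving out any 1 array ended no line effect call of Sdha, Uqcrc1, Uqcrb, Ndufb11, Cox6b2, Atp5a1, Ndufs1 or Ndufs3, but ended some of those of Ndufs8, Ndufv1, Sdhc, Uqcr10, Uqcrc2, Cox4i1, Cox4i2, Cox6a1, Cox7a2, Cox7a2l, Atp5g2 and Atp5mpl. With quantile normalization Ndufv1 was at -0.67 in striatum (adjusted p = 0.11) and Ndufs1 at -0.47 in cortex (0.14), and Ndufs8 and Cox7a2l in striatum and Ndufs3, Ndufs8 and Ndufv1 in cortex no longer passed either.

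Between regions, 0 of 86 members passed the limma test over both lines, where 4.32% of all genes did. The same count was 0 within PVCre (3.96% of all genes) and 0 within PV-tdTomato (2.36%). At an unadjusted p under 0.05 there were 24, 15 and 0 of 86 members, against 3105, 3123 and 1606 of 20095 genes. The share in PVCre was thus near that of all genes, and the 24 became 5 with arrays centred on their medians. With the replicate number as a block, 6 members were higher in striatum over both lines (5.7% of all genes), 4 in PVCre (5.49%) and 0 in PV-tdTomato, the line whose numbers were taken as pairs. The differences nevertheless lay mostly on one side: 84 of 86 were positive over both lines (higher in striatum), 79 in PVCre and 83 in PV-tdTomato, with medians of 0.37, 0.46 and 0.30 against 0.00, -0.01 and 0.02 over all genes. Members measured in the same arrays are not independent, so these shares describe the arrays. Single arrays moved them: in PV-tdTomato 58 were positive with a median of 0.06 without striatum replicate 2, while the median was 0.17 without striatum replicate 1, 0.19 without cortex replicate 3 and 0.55 without striatum replicate 3. In PVCre the median was 0.17 without cortex replicates 2 and 4. With the oligodendrocyte mean as a covariate the medians were 0.17 over both lines, 0.20 in PVCre and 0.15 in PV-tdTomato. Within PVCre the oligodendrocyte mean did not overlap between striatum (14.66 to 14.97) and cortex (15.31 to 15.63). The endothelial and pericyte mean (7.06 to 9.14 against 5.97 to 6.37) and the astrocyte mean (6.92 to 7.21 against 6.07 to 6.75) did not either. In PVCre these measures and the region cannot be told apart. The median over both lines was 0.39 for complex I, 0.15 for complex II, 0.37 for complex III, 0.26 for complex IV and 0.43 for complex V. Sdhc (-0.03 ± 0.11) and Cox8c (-0.10 ± 0.10) were the negative ones. Leaving out replicate 3 of PV-tdTomato striatum brought the count over both lines to 4, and leaving out replicate 3 of PVCre cortex to 1. Of 20095 genes, 759 and 728 were then higher in striatum.

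Cox6a2, the heart and muscle form of subunit 6a, had the highest region difference. It was at 9.61, 11.27, 11.16 and 10.51 in PVCre striatum, against 8.54, 6.85, 10.08 and 6.61 in PVCre cortex. In PV-tdTomato striatum it was at 10.13, 11.05, 7.10 and 8.05, against 8.22, 7.95, 6.71 and 6.67 in PV-tdTomato cortex. The regions overlapped in both lines, Cox6a2 was at most 8.05 in the 6 arrays low in Pvalb, and the difference was 2.15 ± 0.62 over both lines (limma adjusted p = 0.069; with the replicate block ± 0.44 and adjusted p = 0.017). It was 2.61 ± 0.87 in PVCre (adjusted p = 0.13, and 0.03 with the block) and 1.69 ± 0.87 in PV-tdTomato (0.72), and the difference between the lines was 0.92 ± 1.23 (adjusted p = 0.97). Without the 6 arrays low in Pvalb it was 1.91 ± 0.42 (adjusted p = 0.027), and without replicates 2 and 4 of PVCre cortex 1.51 (0.35). Cox8b, the heart and muscle form of subunit 8, had too low a mean to be tested: 6.14, 6.82, 7.0 and 7.66 in PVCre striatum, against 4.33, 4.88, 4.48 and 4.55 in PVCre cortex. It was at 5.95, 6.69, 4.40 and 4.80 in PV-tdTomato striatum, against 4.28, 4.46, 4.45 and 4.20 in PV-tdTomato cortex, so it stood above the cortical range in all 4 arrays of PVCre striatum and in replicates 1 and 2 of PV-tdTomato striatum. With every gene tested Cox8b was the 1 member called (limma adjusted p = 0.0024 over both lines). All 8 cortex arrays and 3 of the 4 PV-tdTomato striatum arrays lay within the background range of 2.95 to 6.10, so its fitted difference of 1.73 is no exact size and the cortical level is only bounded from above. Ndufa4 (1.15 ± 0.41, 0.18), Cox5a (0.89 ± 0.39, 0.29) and Uqcr10 (0.86 ± 0.41, 0.33) came next, leaving copies aside. No member differed between the lines in its region effect (0 of 86 at either the adjusted or the unadjusted threshold). Of all genes 0.199% passed the adjusted one and 1440 of 20095 the unadjusted one.

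Levels were next set against Pvalb within the 4 groups, as a slope in log2 units per log2 unit of Pvalb in a fit with a mean for each group. Most members rose with Pvalb: 77 of 86 passed with a positive slope and 1, Cox6b2, with a negative one (-0.10 ± 0.03, limma adjusted p = 0.019, and 0.061 or 0.052 without replicate 1 or 3 of PV-tdTomato cortex), where 35.2% of 20094 genes passed, 19.5% positive and 15.8% negative. With the replicate number as a block, 0 of 86 passed (2.59% of all genes; adjusted p = 0.16 for Cox6a2 and 0.22 for Cox5a), so the calls in this and the next paragraph are those without the block. The members' median slope was 0.18, against 0.00 over all genes, and 0.13 with the block. Positive slopes passed for 32 of 34 complex I, 4 of 4 complex II, 8 of 8 complex III, 11 of 17 complex IV and 15 of 16 complex V subunits, and for 18 of 18 core subunits. The steepest was Cox6a2 at 0.56 ± 0.07 (adjusted p = 3.2e-05), followed by Ndufa4 at 0.37 ± 0.05 (4.1e-05) and Cox5a, a matrix-side subunit of complex IV, at 0.36 ± 0.04 (2.7e-05). Ndufa4 was at 15.95, 16.61, 16.72 and 16.81 in PVCre striatum and 15.21, 13.93, 16.08 and 14.44 in PVCre cortex. It was at 16.18, 16.81, 13.94 and 14.87 in PV-tdTomato striatum and 15.58, 15.10, 13.98 and 14.38 in PV-tdTomato cortex. Ndufa4 was thus lowest in the 6 arrays where Pvalb was lowest, which were also high in oligodendrocyte markers within PV-tdTomato. In bulk RNA, fewer cells of a type and less RNA per cell cannot be told apart.

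**Figure D4:**
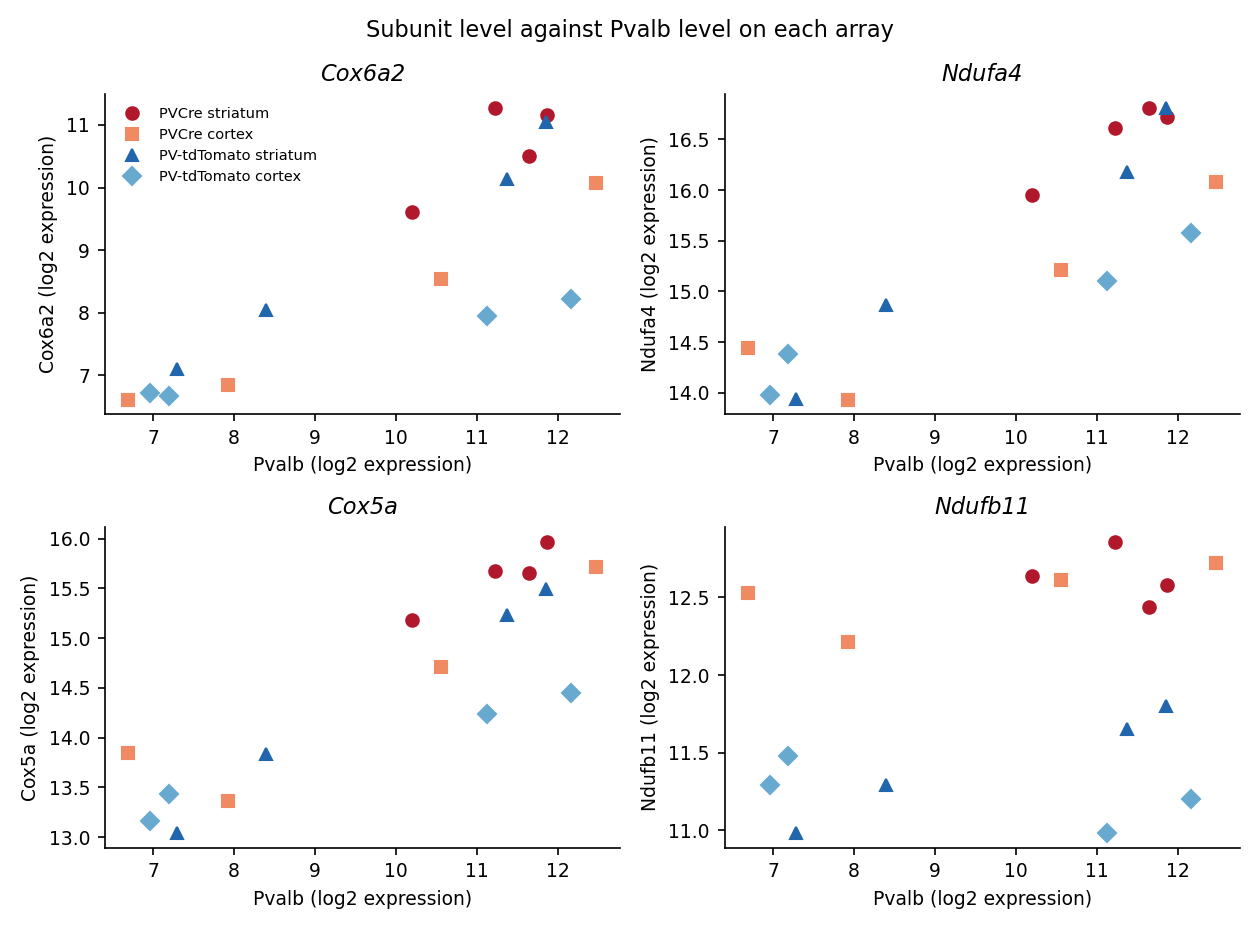
Log2 level of Cox6a2, Ndufa4, Cox5a and Ndufb11 (y axis) against the log2 level of Pvalb (x axis) in the 16 arrays, with symbols by group. Every array with Pvalb at 6.69 to 8.40 lies below every array with Pvalb at 10.20 to 12.48 for Ndufa4 and Cox5a; for Cox6a2 the clusters overlap at 7.95 to 8.05, and Ndufb11 separates by line instead.

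The members differed in steepness more than in direction. In complex III, Uqcr10 rose by 0.33 ± 0.06 (adjusted p = 0.00083) and Uqcrc1 by 0.28 ± 0.05 (0.00059) per log2 unit of Pvalb, while Uqcrfs1 had 0.10 ± 0.02 (0.0046). In complex V, Atp5o, a stalk subunit, had 0.28 ± 0.03 (adjusted p = 3.6e-05). In complex II the slopes were 0.21 ± 0.03 for Sdhd (adjusted p = 0.00021), 0.19 ± 0.03 for Sdha (0.00066), 0.15 ± 0.03 for Sdhb (0.0019) and 0.07 ± 0.02 for Sdhc (0.023). Ndufb11, which separated the lines most clearly in complex I, did not pass here (0.04 ± 0.03, adjusted p = 0.39), nor did the isoforms Cox4i2, Cox7a1, Cox7b2 and Cox8c. Sdha and Uqcrc1 therefore combined a positive slope with a negative line difference, while Pvalb itself did not pass between the lines (1.51 ± 1.43 in striatum, adjusted p = 0.39, and 0.05 ± 1.43 in cortex, 0.98).

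Since Pvalb fell into 2 clusters, the slope was also taken within each and within each line. Within the 10 arrays of the upper cluster 39 members passed, all positive (6.44% of all genes), with a median of 0.28; Cox6a2 had 0.77 ± 0.18 (adjusted p = 0.037) and Cox5a 0.44 ± 0.07 (0.018). Within the 6 arrays of the lower cluster limma called 0 members and 0% of all genes, with 2 members at an unadjusted p under 0.05 and 62 of 86 slopes positive (median 0.08). In PVCre alone 15 passed (4.63% of all genes), and in PV-tdTomato alone 71 were positive and 1 negative (19.1% of all genes positive). Cox6a2 passed in both, at 0.63 ± 0.08 in PVCre (adjusted p = 0.0074) and 0.51 ± 0.09 in PV-tdTomato (0.0032). With the oligodendrocyte marker mean as a covariate 14 members passed (5.68% of all genes, median 0.14), among them Cox6a2 at 0.58 ± 0.12 (adjusted p = 0.012), Cox5a at 0.35 (0.014) and Sdha at 0.26 (0.015). Same-numbered striatum and cortex arrays of PV-tdTomato deviated together and were taken as pairs; in the fit with the replicate block, in which 0 members passed, the unadjusted p of 21 was under 0.05. All 10 tested oligodendrocyte markers had negative slopes past the test (-0.52 to -0.19), as did 7 of 8 astrocyte markers, where 15.8% of all genes did. Of 10 tested parvalbumin interneuron markers 9 had positive slopes past it, where 19.5% of all genes did. Their median was 0.42, above the members' 0.18. Gad1, 1 of them, had 0.67 ± 0.09 (limma adjusted p = 0.0001) and 0.99 with the replicate block (0.013). No microglial or endothelial and pericyte marker passed.

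**Figure D5:**
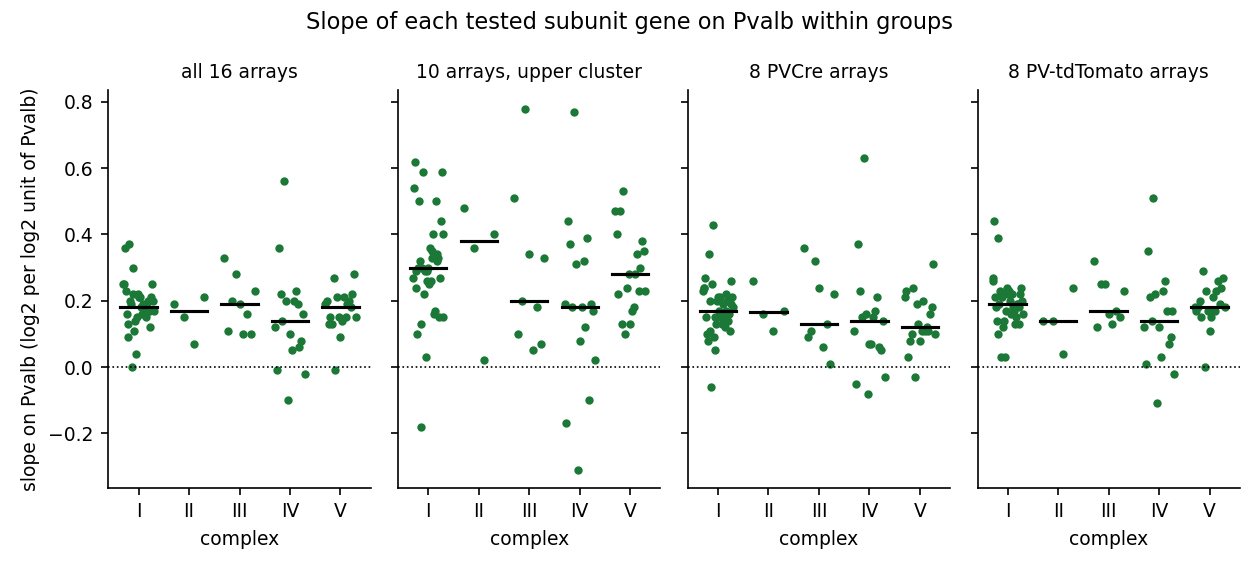
Slope on Pvalb within groups (y axis, log2 units per log2 unit) for the 86 tested members by complex (x axis), in all 16 arrays, in the 10 arrays of the upper Pvalb cluster, in the 8 PVCre arrays and in the 8 PV-tdTomato arrays; each point is 1 gene and black lines are medians. Nearly all points lie above 0 in each panel, with a median over all members of 0.18, 0.28, 0.15 and 0.18.

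Other genes of the mitochondrion were read from lists, with the genes named here picked after their values were seen. All 8 tested genes for cytochrome c, cytochrome c1 and ADP/ATP exchange rose with Pvalb, such as Cycs, the electron carrier between complexes III and IV (0.32 ± 0.05, limma adjusted p = 0.00013). Of 18 tested tricarboxylic acid cycle genes 14 rose and 1 fell, of 40 assembly factors 25 rose, and of 79 mitochondrial ribosome genes 43 rose. Over all genes 19.5% had a positive slope past the test and 15.8% a negative one. Cytosolic ribosome genes gave 16 positive and 3 negative of 236. Among 16 regulators of mitochondrial biogenesis 4 rose and 4 fell: Ppargc1a, the co-activator of mitochondrial genes, had 0.68 ± 0.05 (adjusted p = 6.5e-07), while Gabpa, an ETS factor, had -0.13 (0.00014) and Nrf1 -0.07 (0.019). Ppargc1a was at 11.61, 12.58, 13.04 and 12.96 in PVCre striatum and 10.90, 8.55, 12.98 and 8.13 in PVCre cortex. It was at 13.47, 13.40, 10.90 and 11.39 in PV-tdTomato striatum and 12.62 and 12.59 in replicates 1 and 2 of PV-tdTomato cortex, with at most 10.09 in its replicates 3 and 4. Within each PV-tdTomato group and within PVCre cortex the arrays low in Pvalb were the low ones, while replicate 1 of PVCre cortex, at 10.90, was no higher than replicate 3 of PV-tdTomato striatum. Ppargc1a kept its slope with the replicate block (0.80, adjusted p = 0.0091).

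Between the lines, the tricarboxylic acid cycle genes that passed were all lower in PVCre, where 35.3% of all genes were lower in striatum and 34.6% in cortex. In striatum 8 of 18 were lower in PVCre and 0 higher (median -0.79), and in cortex 11 and 0 (median -0.86). Ogdh, which makes succinyl-CoA, differed by -1.89 ± 0.30 in striatum (limma adjusted p = 0.00015) and -1.92 ± 0.30 in cortex (0.00014). Assembly factors had 2 higher and 16 lower of 40 in striatum and 3 and 14 in cortex, and the mitochondrial ribosome 5 and 22 of 79 in striatum and 9 and 20 in cortex, shares near or under those of all genes. Ppargc1a did not pass between the lines (0.26 ± 1.0 in striatum, adjusted p = 0.85, and -1.18 ± 1.0 in cortex, 0.33) or between regions (1.68 ± 0.71 over both lines, 0.26).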

How the data were processed

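The values are on a log2 scale and were deposited by the authors after RMA. The submitters' processing notes name Affymetrix Expression Console, with its version and settings not given in the sources used here. Per the labels' protocols, 5 ng of Trizol-isolated RNA was amplified for an Affymetrix Mouse Transcriptome array. Deposited values run from 2.58 to 19.92 with array medians of 5.97 to 6.13; values that high may mean a stretched scale, so differences are given in log2 units and not as folds. The number of arrays limits the precision.

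Of 65956 transcript clusters, 30604 had 1 gene, 2146 several and 33206 none listed in the platform table, and 827 symbols were updated. The third of genes with the lowest mean (under 5.53) was left out, which leaves 20095. One limma 3.58.1 fit in R 4.3.3 (lmFit, eBayes) over all 16 arrays, with a mean per group, gave every contrast; the Pvalb slope came from the same fit with Pvalb as a term, over 20094 genes. p-values were adjusted by Benjamini-Hochberg over all genes, threshold 0.05. Python 3.11.15 with pandas 2.3.3, numpy 2.4.6 and matplotlib 3.10.9 made tables and figures. The fits were also run on simulated data with independent noise in each array. Such data cannot show how arrays that deviate together affect the p-values.

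Values are named for core subunits, tissue-restricted isoforms, the extreme tested members of each complex and comparison, and the 3 steepest and 3 flattest Pvalb slopes. Members and gene lists were chosen with earlier results of these data known. Alternatives changed the filter, transcript clusters, normalization, centring, eBayes prior, arrays used, replicate block, control separation and oligodendrocyte markers. The microglial and Xist covariates, the lower Pvalb cluster, and leaving out replicates 2 and 4 of PVCre cortex were chosen after seeing the data. Replicate numbers come from the titles; for PVCre cortex the descriptions give other numbers. Deviations of same-numbered arrays correlated at 0.58 to 0.76 between the PV-tdTomato regions, where every pair passed 0.1, and at -0.29 to 0.69 between the PVCre regions. Where nothing says that pools were separate preparations, p-values measure only the spread between these arrays.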

Additional observations from a re-analysis of the deposited data

Results flagged for a closer look

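Among 184 combinations of a named gene or complex mean with a group of 4 arrays, 12 had 1 array apart from the other 3, with a gap to the nearest of them, as a share of the group's range, past Dixon's 95% critical value; chance gives about 1 in 20 such groups. In PVCre striatum the array apart was low for Ndufv2 (gap 0.97 of the range, 10.67 against 11.35 to 11.37), Cox5b (0.85, 15.01 against 15.60 to 15.71), Cox7a1 (0.848, 7.12 against 7.73 to 7.84), Atp5mpl (0.858, 15.65 against 16.25 to 16.35), Atp5g1 (0.94, 10.27 against 11.19 to 11.25) and the mean of complex V (0.938, 11.42 against 11.81 to 11.83). In each of these it was replicate 1, which also had the lowest Pvalb level of its group, 10.20, a control separation of 3.09, the highest microglial marker mean of its group (8.67, against 7.50 to 8.31) and an endothelial and pericyte marker mean of 9.14, against 7.06 to 7.41. Uqcrfs1 had 1 high array in PVCre striatum, replicate 4 (0.914, 9.42 against 9.21 to 9.23). In PVCre cortex, Uqcrc1 was high in replicate 3 (0.897, 12.12 against 10.17 to 10.37) and Cox7a1 low in replicate 2 (0.869, 6.36 against 7.13 to 7.24). Ndufs1 (0.85, 10.40 against 9.77 to 9.86) and Cox6a1 (0.911, 14.90 against 14.40 to 14.45) were high in replicate 1 of PV-tdTomato cortex, and Atp5g2 was high in 1 array of PV-tdTomato striatum (0.945, 12.68 against 12.08 to 12.11).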

How the results depend on the processing

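The difference between the lines in the region effect stayed at 0 members under every alternative run. The count of line effects in striatum, 25, was 39 with quantile normalization, 53 with control separation as a covariate, 41 without the 6 arrays low in Pvalb, 37 with oligodendrocyte markers (33 higher, 4 lower), 1 with microglial markers as a covariate and 17 to 30 with 1 array left out. In cortex the 24 became 40 with control separation, 30 with oligodendrocyte markers (26 higher, 4 lower), 10 without PVCre cortex replicates 2 and 4, 1 with microglial markers, and 16 to 28 with 1 array left out. Without PVCre cortex replicates 2 and 4, 2827 of 20095 genes were higher and 5268 lower. Region effects over both lines, 0, became 1 with no filter, 1 with quantile normalization, 7 with control separation, 6 without the low-Pvalb arrays, and 0 to 4 with 1 array left out. All of these were higher in striatum. So were 697 of 30142 genes with no filter. Of 20095 genes, 666 were higher with quantile normalization, 904 with control separation and 939 without the low-Pvalb arrays. In PVCre the 0 became 1 with no filter, 1 with only the arrays compared, 12 with control separation and 0 to 1 with 1 array left out, and in PV-tdTomato it became 4 without the low-Pvalb arrays. Genes higher in PVCre striatum were 558 of 30142 with no filter. They were 581 of 20095 with only the arrays compared and 921 with control separation. In PV-tdTomato 659 were higher in striatum without the low-Pvalb arrays. The Pvalb slope count, 78, was 42 with control separation, all positive, where 11.2% of all genes had a positive slope past the test. It was 14 with oligodendrocyte markers, 39 in the upper and 0 in the lower Pvalb cluster, 15 in PVCre arrays and 71 to 78 with 1 array left out.

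With the replicate number within each line as a block, the count was 6 for the region effect over both lines (Cox6a2 at 2.15 ± 0.44, limma adjusted p = 0.017). It was 4 in PVCre, 0 in PV-tdTomato and 0 for the slope, and 2 of 4 arrays in each line correlated best with their own number. For the line effects the block was the bare replicate number, which joins pools of the 2 lines from different mice, and the counts were 21 and 18. Such arrays were not taken as pairs: their deviations correlated at -0.44 to -0.08 in striatum and -0.64 to 0.5 in cortex.

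Named members changed sign with control separation in striatum (Ndufs8 0.62, Ndufv1 0.57, Cox5b 1.51, Atp5a1 0.14, Cox7a2l 0.38, Atp5g1 2.09, Cox6a1 0.35) and in cortex (Ndufs1 0.06, Ndufs3 0.21, Ndufs7 1.00, Ndufs8 0.52, Ndufv1 0.33, Ndufv2 1.30, Uqcrc2 0.40, Atp5b 1.17, Atp5g1 1.60, Atp5l 1.32). With microglial markers this held for Ndufv1 in striatum (0.43) and in cortex for Ndufs1 (0.26), Ndufv1 (0.55), Uqcrc2 (0.21), Atp5a1 (0.01) and Cox6b2 (-0.19). Quantile normalization turned Ndufs7 (0.57) and Uqcrfs1 (0.42) in cortex, and the lower Pvalb cluster turned the slopes of Ndufs7 (-0.15), Uqcrc1 (-0.01), Atp5b (-0.02), Uqcr10 (-0.35) and Atp5l (-0.08). The causes were not tested.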

Other observations

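Glycolysis and the handling of lactate did not move as 1 block with Pvalb; the genes here were picked after their values were seen. Of 20 tested genes of this list 13 had positive slopes past the limma test and 3 negative ones (65.0% and 15.0%, against 19.5% and 15.8% of all genes). Ldhb, the lactate dehydrogenase subunit of oxidative tissues, rose by 0.54 ± 0.05 log2 units per log2 unit of Pvalb (adjusted p = 5.9e-06), while Ldha, the muscle-type subunit, had -0.02 ± 0.02 (0.59). Slc2a3, the neuronal glucose transporter, rose by 0.35 ± 0.05 (adjusted p = 0.00016), while the glucose transporter of endothelium and glia, Slc2a1, had -0.28 ± 0.06 (0.0015) and the monocarboxylate transporter Slc16a1 -0.18 ± 0.03 (0.00035).

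Between the lines, cytosolic ribosome genes, pseudogenes among them, were higher in PVCre for 102 of 236 tested and lower for 12 in striatum (median 0.50). These are 43.2% and 5.08%, against 18.1% and 35.3% of all genes. In cortex 115 were higher and 11 lower (median 0.57), or 48.7% and 4.66%, against 19% and 34.6% of all genes. Hcfc1, an X-linked co-factor of mitochondrial gene transcription, had a difference of -2.85 ± 0.17 in striatum (limma adjusted p = 7.8e-08) and -2.24 ± 0.17 in cortex (3.9e-07), which is of the size of that of Sdha and Uqcrc1.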
